A study of Oryza sativa with 6 samples.

Results

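Mitogen-activated protein kinases (MAP kinases) and the MAP kinase kinases that act on them were followed in rice roots exposed to copper or cadmium. The 9 loci were taken from a list of locus numbers for rice enzymes of both kinds, and every probe whose name starts with one of these numbers was used. They are Os03g0285800, Os06g0154500, Os10g0533600, Os06g0699400, Os06g0708000, Os02g0787300, Os01g0510100, Os06g0191300 and Os03g0225100, 9 of 29864 genes on the array, read by 30 of its 42418 gene probes. All 9 loci and all 30 probes passed the filter on dim probes, and both channels of every one of these probes were well above background on all 6 arrays. By the numbering convention for rice loci, the digits after Os give the chromosome, so 4 of the loci lie on chromosome 6, 2 on chromosome 3, and 1 each on chromosomes 1, 2 and 10. The array files give locus numbers without gene names, and no locus number matched the reference table, so the single loci are not sorted here into MAP kinases and MAP kinase kinases and no names are given to them.

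A MAP kinase cascade passes a signal by phosphorylation. A receptor or stress sensor switches on a MAP kinase kinase kinase, which phosphorylates a MAP kinase kinase, which in turn phosphorylates a MAP kinase on a threonine and a tyrosine in its activation loop. The active MAP kinase then modifies transcription factors and other targets. In plants such cascades are known for their part in responses to pathogens, cold, drought and wounding and in cell division, and copper and cadmium ions are known to activate MAP kinases in seedlings of rice and alfalfa. Enzyme activity is set by phosphorylation, whereas the arrays measured only transcript levels.

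The study used roots of 6-day-old seedlings of Oryza sativa, cultivar TN-67. RNA came from roots exposed to 5 µM copper (3 arrays), from roots exposed to 25 µM cadmium (3 arrays) and from roots kept in water. On each 2-colour array, metal-treated roots were labelled with Cy5 (red) and water roots with Cy3 (green), so an array gives the ratio of treated to water roots within 1 hybridisation. The 2 metals were given at different doses, and a difference between them is a difference between these 2 treatments. The series' design text names 3 control replicates for the 6 arrays, so the comparisons of copper and of cadmium with water may share control RNA. With treated RNA always in Cy5, dye bias of a probe and a change against water cannot be told apart, while a constant dye effect cancels between the metals. The labels call the arrays biological replicates without saying whether they came from separate cultures, and the p-values measure only spread between arrays. The fit pools the spread of a gene over both metals and draws it towards that of all genes. An SE given with a change is thus not that of 1 metal's arrays alone. For Os06g0191300 the SE is 0.11, where the SD was 0.28 among copper arrays and 0.091 among cadmium arrays. The labels used here give no exposure time, and the labelled tissue could not be checked against root markers, since the array files pair these locus numbers with no gene names. In bulk RNA of whole roots, fewer cells of a type and less RNA per cell cannot be told apart.

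Copper 2, copper 3, cadmium 2 and cadmium 3 lay on 1 slide, and copper 1 and cadmium 1 each on a slide of their own. Across genes, log2 ratios of arrays of the same metal on that slide correlated at 0.964 for copper and 0.950 for cadmium, against values between 0.802 and 0.840 for arrays of the same metal on different slides. Signals were well above background in 75.8% to 81.1% of non-control spots for Cy5 and 74.3% to 80.0% for Cy3, with no saturated spot. Over all genes the standard error of a log2 change had a median of 0.094 for each metal, and precision is limited by the number of arrays.

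Most of the 9 loci rose with copper. The test called 7 of them higher, 1 lower and 1 neither way (limma across 23417 genes, Benjamini-Hochberg adjusted p under 0.05), so that 8 of 9 changed, where 42.9% of all tested genes did. Copper raised 25.4% of all tested genes and lowered 17.5%. The median log2 change of the 9 loci was 0.50, beside a median of 0.015 over all genes. Rises of at least 2-fold were seen in 4 of the 9 loci, which 7.44% of all tested genes also showed. The loci were chosen with earlier results of these data known. These shares and those below are thus a description, not a test of the set. Without copper replicate 2, or without copper replicate 3, 5 loci were called, all higher, and these 5 were called under each of the 22 alternatives tried. Without these arrays, 6592 and 5762 of all 23417 genes were called with copper, against 10045 with all arrays.

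The largest change was that of Os03g0285800 on chromosome 3. Its log2 ratios of copper over water were 2.37, 2.01 and 2.35 on the 3 copper arrays, and those of cadmium over water 1.39, 1.48 and 1.35 on the 3 cadmium arrays. All 6 ratios were well above 0, and the lowest copper ratio exceeded the highest cadmium ratio. The fitted change with copper was 2.24 ± 0.09 (SE, n = 3, limma adjusted p = 3.04e-06), a 4.73-fold rise, at rank 376 of the 23417 genes from the highest. Over the alternatives it ranged from 2.13 to 2.36.

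**Figure D1:**
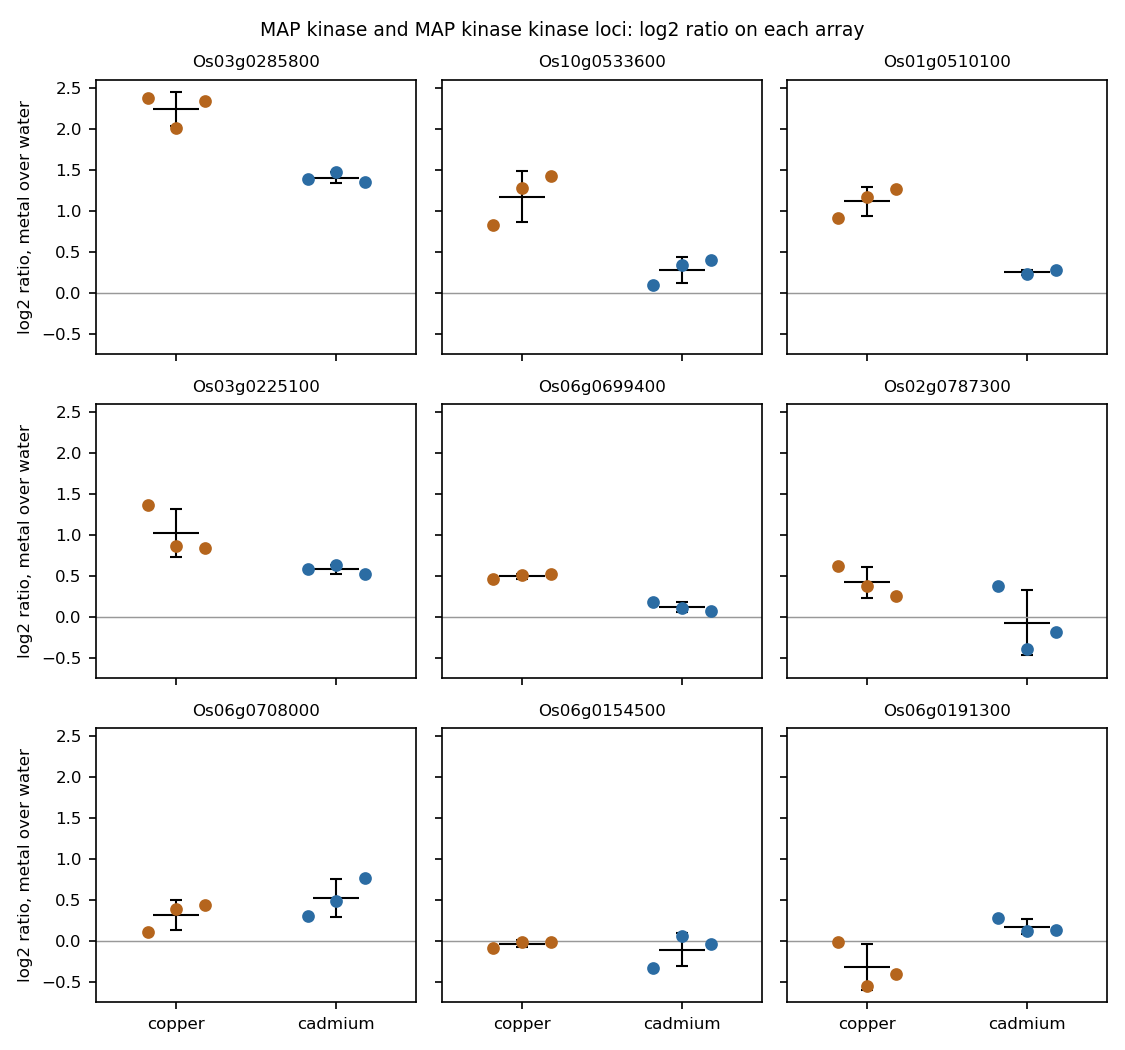
Log2 ratio of metal-treated over water roots on each array for the 9 loci, in panels ordered by the change with copper. Each point is 1 array, with copper at the left and cadmium at the right of a panel, and the bar and whiskers give the mean ± SD. Os03g0285800 is the highest with both metals, between 2.01 and 2.37 with copper and between 1.35 and 1.48 with cadmium, and Os01g0510100 has no value on cadmium 1.

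Another 3 loci roughly doubled with copper. Os10g0533600, read by a single probe, had log2 ratios of 0.83, 1.28 and 1.42 on the copper arrays, against 0.10, 0.34 and 0.40 on the cadmium arrays. Its copper ratios were all above its cadmium ratios, and copper 1, on its own slide, was the lowest of the copper arrays. The change with copper was 1.18 ± 0.12 (SE, n = 3, limma adjusted p = 0.000231). Os01g0510100 had ratios of 0.92, 1.17 and 1.27 on the copper arrays, against 0.23 and 0.28 on cadmium 2 and 3. Its spot on cadmium 1 was marked as an outlier by the scanner program and was left out, so its cadmium value rests on 2 arrays. The copper change was 1.12 ± 0.09 (SE, n = 3, limma adjusted p = 0.000146), or 2.17-fold. Os03g0225100 had ratios of 1.37, 0.86 and 0.84 on the copper arrays, against 0.59, 0.64 and 0.52 on the cadmium arrays. Here copper 1 was the highest copper array, and again the groups did not overlap. The change was 1.02 ± 0.11 (SE, n = 3, limma adjusted p = 0.000284), or 2.03-fold, and it was 0.85 without copper replicate 1.

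A smaller rise, of little spread in the probe tested, was seen in Os06g0699400. Its ratios were 0.47, 0.51 and 0.52 on the copper arrays, against 0.19, 0.11 and 0.072 on the cadmium arrays. The copper change of 0.50 ± 0.07 (SE, n = 3, limma adjusted p = 0.000902), or 1.41-fold, was called under all 22 alternatives. Another probe of this locus spread more, with 0.24, 0.40 and 0.64 on the copper arrays.

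The 3 remaining copper calls lay close to the threshold. Os02g0787300, read by a single probe, had ratios of 0.63, 0.38 and 0.26 on the copper arrays and 0.38, -0.39 and -0.18 on the cadmium arrays. Its copper ratios were all above 0, its cadmium ratios lay on both sides of 0, and the groups overlapped. The copper change was 0.42 ± 0.14 (SE, n = 3, limma adjusted p = 0.0468). Os06g0708000 had ratios of 0.11, 0.40 and 0.45 on the copper arrays and 0.31, 0.49 and 0.77 on the cadmium arrays. The groups overlapped, and every ratio was above 0. The copper change was 0.32 ± 0.11 (SE, n = 3, limma adjusted p = 0.0455). Os06g0191300 was the only 1 of the 9 that was called lower with copper. Its ratios were -0.0055, -0.54 and -0.40 on the copper arrays, against 0.28, 0.12 and 0.13 on the cadmium arrays. Copper 2 and 3 were clearly below water while copper 1 was level with it, and no copper ratio reached the lowest cadmium ratio. The change with copper was -0.32 ± 0.11 (SE, n = 3, limma adjusted p = 0.0465), or 0.803 of the water level, and it was -0.20 without copper replicate 2 and -0.47 with only the slide that holds both metals. All 3 calls were lost without copper replicate 2 and without copper replicate 3. The change of Os02g0787300 was then 0.45 (adjusted p = 0.128) and 0.51 (0.0908), no smaller than with all arrays. That of Os06g0708000 was 0.28 (adjusted p = 0.186) and 0.26 (0.223), and that of Os06g0191300 was -0.20 (0.257) and -0.27 (0.204). The call of Os02g0787300 was also lost without copper replicate 1 (0.32, adjusted p = 0.182). Leaving out a cadmium array does not alter a copper value, and only the adjusted p moved, to 0.0666 for Os02g0787300 without cadmium replicate 3, to 0.0747 for Os06g0708000 without cadmium replicate 2, and to 0.0744 and 0.0702 for Os06g0191300 without cadmium replicate 2 and 3. Taking slide as a random block, the calls of Os06g0708000 (0.23, adjusted p = 0.174) and Os06g0191300 (-0.26, adjusted p = 0.109) were lost. Processing alone also lost calls. That of Os06g0708000 was lost with the scanner's processed signals (adjusted p = 0.114), an offset of 10 (0.0684), median centring (0.107) and scale normalisation (0.0713). Of the 22 alternatives, 12 kept the copper call of Os06g0708000, 13 that of Os02g0787300 and 16 that of Os06g0191300.

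Os06g0154500 did not pass the test with either metal. Its ratios were -0.078, -0.0073 and -0.0099 on the copper arrays and -0.33, 0.060 and -0.040 on the cadmium arrays. Apart from cadmium 1, all lay within 0.08 of water. The 95% interval of the change ran from -0.24 to 0.17 with copper and from -0.31 to 0.10 with cadmium (adjusted p = 0.793 and 0.396), so a change of 2-fold lies outside both.

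Cadmium changed fewer of the loci past the test. Of the 9, 3 rose and 6 did not pass the test, where cadmium changed 34% of all tested genes, raising 21% and lowering 12.9%. The share of the loci that changed was near that background. The median log2 change of the 9 loci was 0.25, beside 0.011 over all genes. Only Os03g0285800 rose at least 2-fold, which 5.23% of all tested genes did.

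**Figure D2:**
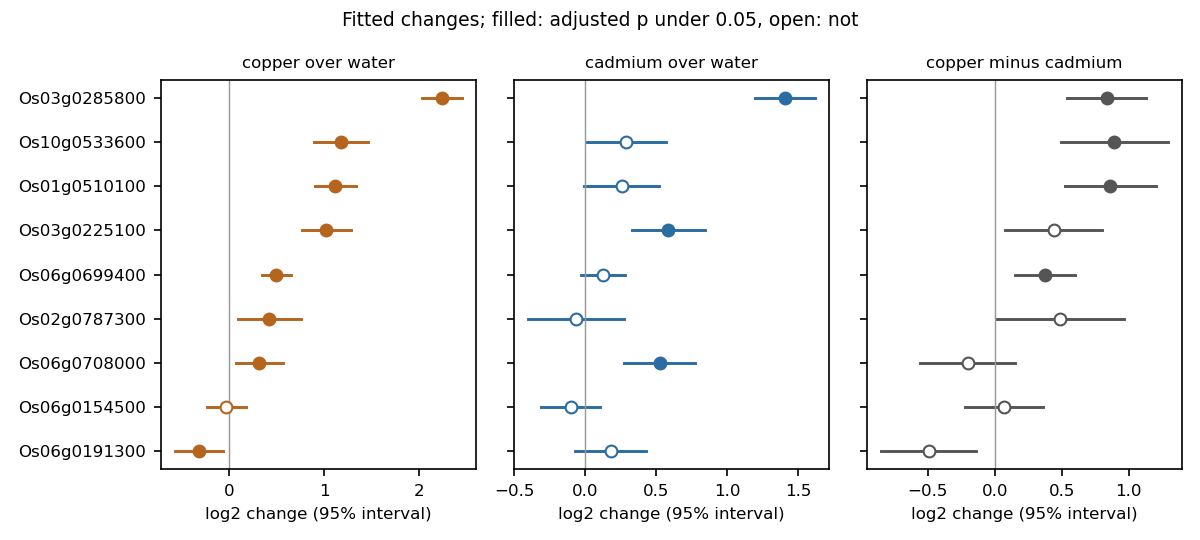
Fitted log2 changes of the 9 loci with copper over water, with cadmium over water and between copper and cadmium. Points are limma estimates with 95% intervals as lines, filled where the adjusted p was under 0.05 and open where it was not. With copper 8 points are filled, with cadmium 3 and between the metals 4.

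Os03g0285800 changed by 1.41 ± 0.09 with cadmium (SE, n = 3, limma adjusted p = 2.61e-05), a 2.65-fold rise, at rank 790 from the highest. Os03g0225100 rose by 0.58 ± 0.11 (SE, n = 3, limma adjusted p = 0.00588). Os06g0708000 rose by 0.52 ± 0.11 (SE, n = 3, limma adjusted p = 0.00868), or 1.44-fold. These are the loci whose 3 cadmium ratios all lay above 0.3. The calls of Os03g0285800 and Os03g0225100 held under all 22 alternatives, and that of Os06g0708000 was lost without cadmium replicate 3 (adjusted p = 0.0537).

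The other 6 loci had small cadmium changes. The estimates that did not pass were 0.28 for Os10g0533600 (95% interval 0.0015 to 0.56, adjusted p = 0.108), 0.25 for Os01g0510100 (-0.0069 to 0.52, adjusted p = 0.117), 0.18 for Os06g0191300 (-0.071 to 0.43, adjusted p = 0.233), 0.12 for Os06g0699400 (-0.034 to 0.28, adjusted p = 0.194) and -0.067 for Os02g0787300 (-0.40 to 0.27, adjusted p = 0.748). None of these intervals reached a log2 change of 1. With the replicate number as a block, Os10g0533600 passed (adjusted p = 0.0225), and it also passed without copper replicate 1 (0.0354), with the same cadmium value. With only copper 2, copper 3, cadmium 2 and cadmium 3, which share a slide, 6 loci were called with cadmium, 5 higher and Os02g0787300 lower at -0.29 (adjusted p = 0.0139). Os10g0533600 (0.37, adjusted p = 0.00244) and Os01g0510100 (0.25, adjusted p = 0.014) were among the higher. Calls rose across the array in that fit, to 11242 of all 23417 genes with cadmium, from 7960 in the main fit. Os01g0510100 also passed with the authors' series table (0.24, adjusted p = 0.049), where its flagged cadmium 1 spot was not left out. With outlier spots kept in the main processing it did not pass (0.23, adjusted p = 0.0606).

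Copper and cadmium were then compared directly on the log2 ratios. Of the 9 loci, 4 were higher with copper than with cadmium and none was lower by this test (limma, adjusted p under 0.05). By the same test 10.6% of all tested genes differed between the metals, 6.57% of all being higher and 4.07% lower with copper. At an unadjusted p under 0.05, 3 more loci passed, Os03g0225100 and Os02g0787300 higher and Os06g0191300 lower with copper. The share of all genes at that unadjusted threshold was not counted, so these 3 have no background beside them. The copper and cadmium ratios did not overlap in 6 of the 9 loci, as in 32.8% of all tested genes. The median difference of the loci was 0.44, beside -0.0084 over all genes.

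The 3 largest differences were alike in size. They were 0.89 ± 0.17 in Os10g0533600 (SE, limma adjusted p = 0.0163), 0.86 ± 0.14 in Os01g0510100 (SE, limma adjusted p = 0.0119) and 0.84 ± 0.13 in Os03g0285800 (SE, limma adjusted p = 0.00636). Each corresponds to a 1.79-fold to 1.86-fold higher ratio with 5 µM copper than with 25 µM cadmium, and their 95% intervals overlap widely. The difference of Os06g0699400 was 0.38 ± 0.10 (SE, limma adjusted p = 0.0461). Only the call of Os03g0285800 held under all 22 alternatives, with differences from 0.65 to 0.95. Without copper replicate 2, copper replicate 3 or cadmium replicate 2 it was the only call left, and without cadmium replicate 3 there were 2. Without copper replicate 2, copper replicate 3 and cadmium replicate 2, 1257, 1252 and 1282 of all genes were called, against 2491 with all arrays. The adjusted p of Os10g0533600 was then 0.0702, 0.0636 and 0.0578 without copper replicate 2, copper replicate 3 and cadmium replicate 2. That of Os01g0510100 was 0.0552, 0.0518, 0.0813 and 0.0677 without copper replicate 2, copper replicate 3, cadmium replicate 2 and cadmium replicate 3. The values themselves stayed between 0.77 and 1.07 for the first and between 0.78 and 0.96 for the second over all alternatives. The call of Os06g0699400 was lost in 14 of the 22, among them without any 1 array other than cadmium 1 (adjusted p between 0.0556 and 0.173).

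Os06g0191300 had opposite signs with the metals, below 0 on all 3 copper arrays, if only just on copper 1, and above 0 on all 3 cadmium arrays. The difference of -0.50 ± 0.15 (SE, limma adjusted p = 0.0817) did not pass the test. It passed with the replicate number as a block (adjusted p = 0.0339), without copper replicate 1 (-0.65, adjusted p = 0.0131), with the slide as a random block (-0.55, adjusted p = 0.00426) and with only the slide that holds both metals (-0.60, adjusted p = 0.00215). Os03g0225100 had a difference of 0.44 (95% interval 0.080 to 0.80, adjusted p = 0.12) and Os02g0787300 one of 0.49 (0.016 to 0.97, adjusted p = 0.18), which became 0.71 without cadmium replicate 1 (adjusted p = 0.024) and 0.61 with only the slide that holds both metals (adjusted p = 0.00335). With the slide as a random block both passed (adjusted p = 0.0456 and 0.0115), which made 7 calls in all. That fit called 5876 of all 23417 genes between the metals, against 2491 in the main fit. Os06g0708000 had the opposite sign, at -0.20 (-0.56 to 0.15, adjusted p = 0.462), and Os06g0154500 a difference of 0.072 (-0.22 to 0.36, adjusted p = 0.775).

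**Figure D3:**
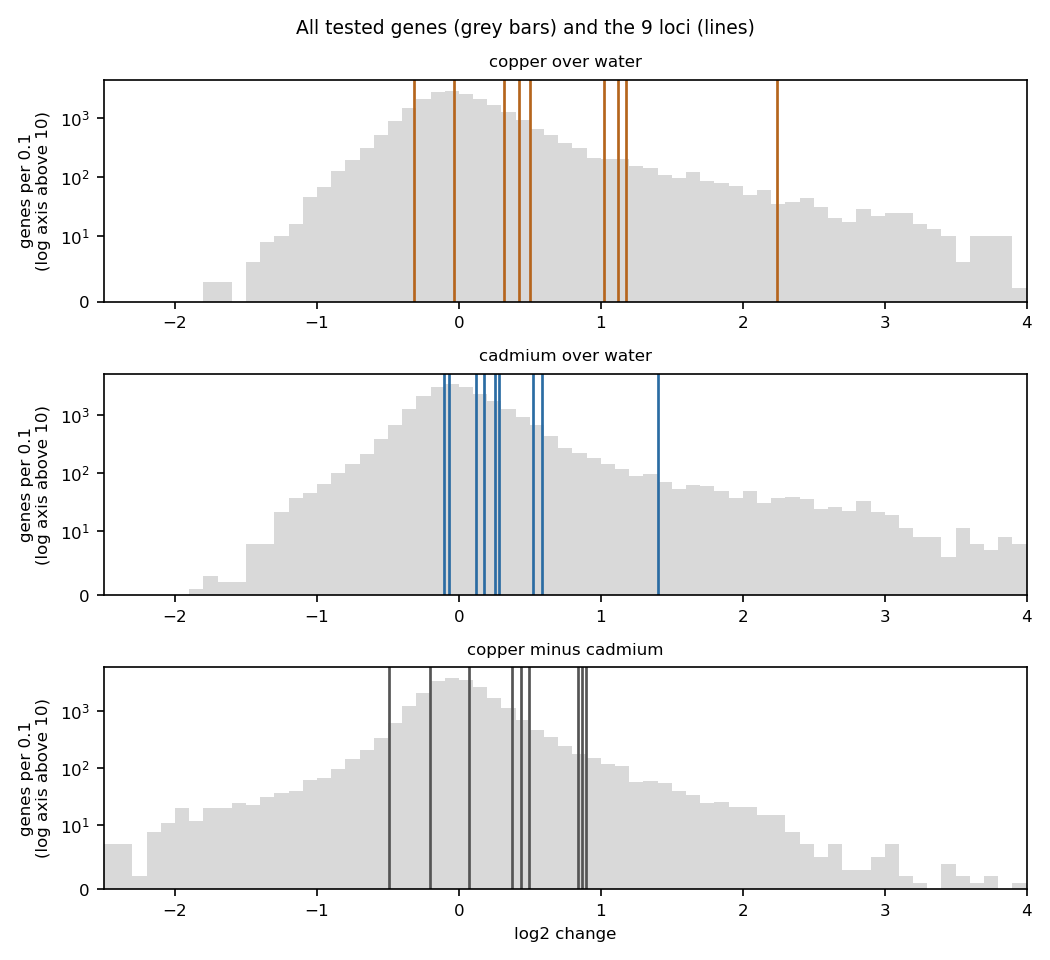
Histograms of the log2 change of all 23417 tested genes (grey, number of genes per 0.1, on an axis that is linear up to 10 and logarithmic above) with the 9 loci as vertical lines, for copper, cadmium and copper minus cadmium. The 3 highest lines in the lowest panel, between 0.84 and 0.89, lie above most genes, and 32 genes with copper, 57 with cadmium and 38 between the metals lie outside the axis.

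Of the 9 loci, 7 are read by more than 1 probe, which checks a value within an array but adds no replicate, since the probes of a locus share the same RNA. The 8 probes of Os03g0285800 gave copper changes from 2.07 to 2.24 and cadmium changes of at least 1.36 with a median of 1.404, and all 8 were called for both metals and between them (limma over 33695 probes, highest adjusted p = 6.1e-06, 4.69e-05 and 0.0212). On an array, their SD was 0.058 (median over arrays), beside 0.19 among copper arrays for a probe, so for this locus the arrays differed more than the probes did. That also held for Os06g0191300 (0.053 and 0.26) and Os03g0225100 (0.051 and 0.26), while Os01g0510100 had 0.092 and 0.093. The probes differed more in Os06g0699400 (0.14 and 0.065), Os06g0154500 (0.10 and 0.044) and Os06g0708000 (0.10 and 0.062). The second probe of Os01g0510100, measured on all 6 arrays, gave 1.04 with copper, 0.13 with cadmium and 0.91 between them (adjusted p = 2.9e-05, 0.174 and 0.00154), close to the values of the probe that lacks cadmium 1. The second probe of Os03g0225100 gave 0.97 and 0.59 with the metals, both called.

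All 4 probes of Os06g0699400 were called with copper, between 0.32 and 0.52. One of them was also called with cadmium, at 0.29 (adjusted p = 0.0212), with a copper minus cadmium difference of 0.022 (adjusted p = 0.926), where 2 of the 4 probes were called between the metals. The 5 probes of Os06g0708000 were all called with cadmium, from 0.41 to 0.55, and 3 of the 5 with copper, from 0.20 to 0.32 over all 5. All 5 probes read lower with copper than with cadmium (-0.34 to -0.18) without passing the test. The 3 probes of Os06g0191300 gave -0.32, -0.29 and -0.28 with copper, of which 2 were called, and differences between the metals from -0.52 to -0.44, of which 1 was called. The 4 probes of Os06g0154500 lay on both sides of 0, from -0.13 to 0.096 with copper and from -0.10 to 0.13 with cadmium, and none was called. How far probes of related kinases read each other's transcripts was not tested, since the files used here hold no probe sequences.

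**Figure D4:**
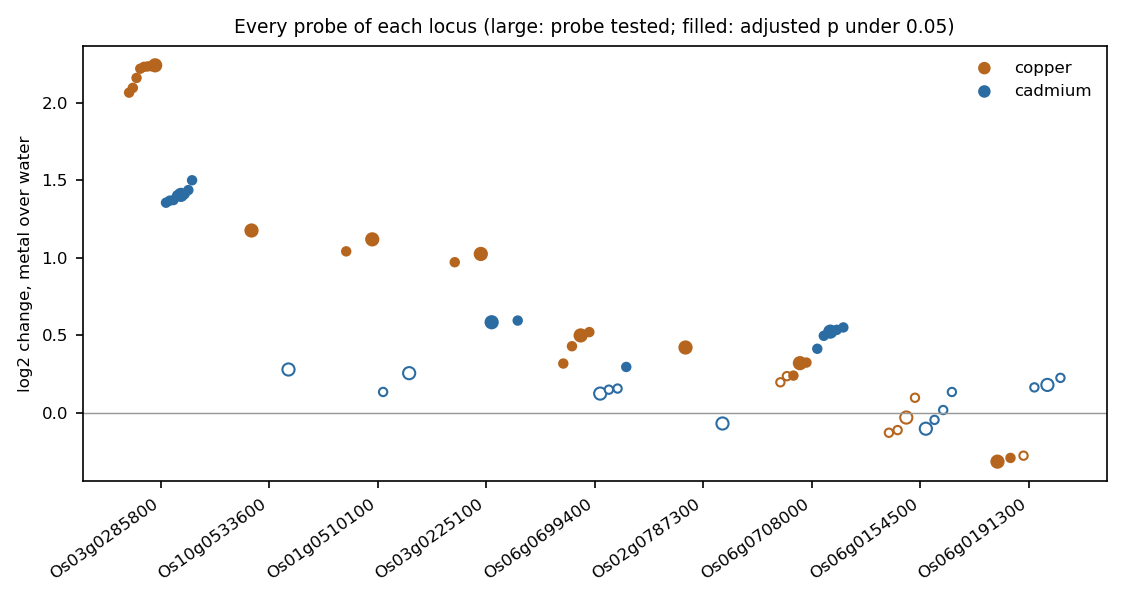
Log2 change over water of each of the 30 probes, by locus, with copper at the left and cadmium at the right of each locus. Large points are the probes tested for the locus, and filled points had an adjusted p under 0.05 in the fit of all probes. The 8 probes of Os03g0285800 form a tight group for each metal, between 2.07 and 2.24 for copper and with a median of 1.404 for cadmium.

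The ratios were also split into their 2 channels, as normalised log2 signals of the same probe across arrays. For Os03g0285800 the signal of copper-treated roots was 13.48, 12.87 and 13.22 and that of cadmium-treated roots 12.54, 12.15 and 12.25, against 10.68 to 11.14 in water roots on all 6 arrays. The lowest metal-treated signal thus stood above the highest water signal. The treated signals differed by 0.88 between copper and cadmium arrays (means of 13.19 and 12.31), while the water signals differed by 0.042 (10.95 and 10.91). The means went likewise for Os01g0510100, whose treated signals differed by 0.89 and whose water signals by 0.023, and for Os10g0533600, with 0.81 and -0.086. In both loci every copper-treated signal stood above all water signals, but not every cadmium-treated signal did. For Os06g0191300 the treated signals differed by -0.55 and the water signals by -0.051. In these 4 loci the difference in mean ratio thus lay mostly in the mean of the metal-treated channel. Array by array, treated signals of Os10g0533600 overlapped, with copper 1 at 11.30 below cadmium 2 and cadmium 3, both at 11.35. Those of Os06g0191300 overlapped too, with copper 1 at 10.61 above cadmium 1 at 10.59. Cadmium 1 also had the lowest water signal of Os06g0191300, at 10.30. For Os01g0510100 the cadmium means rest on cadmium 2 and 3, while the copper means include copper 1, which had the highest water signal, 12.085. On the slide with both metals its water signals were 11.59 and 11.63 on copper arrays, against 11.82 and 11.67 on cadmium arrays. Its treated signals there were 12.76 and 12.89, against 12.05 and 11.95.

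Os03g0225100 was different in this respect. Its treated signal averaged 10.002 on the copper arrays and 9.07 on the cadmium arrays, a difference of 0.93, and its water signal 8.98 and 8.49, a difference of 0.49. The water signal of copper 1, at 9.72, stood above those of the other 5 arrays, which lay between 8.35 and 8.65. The treated signal of copper 1 was also the highest, at 11.09. Copper 1 likewise had the highest water signal of Os02g0787300, at 8.49 against 7.29 to 7.84 on the others. For Os06g0699400 the water signal ran from 9.35 to 10.71 and was lowest on copper 1 and cadmium 1, and the treated signal ran with it, so the ratios varied far less than the signals.

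**Figure D5:**
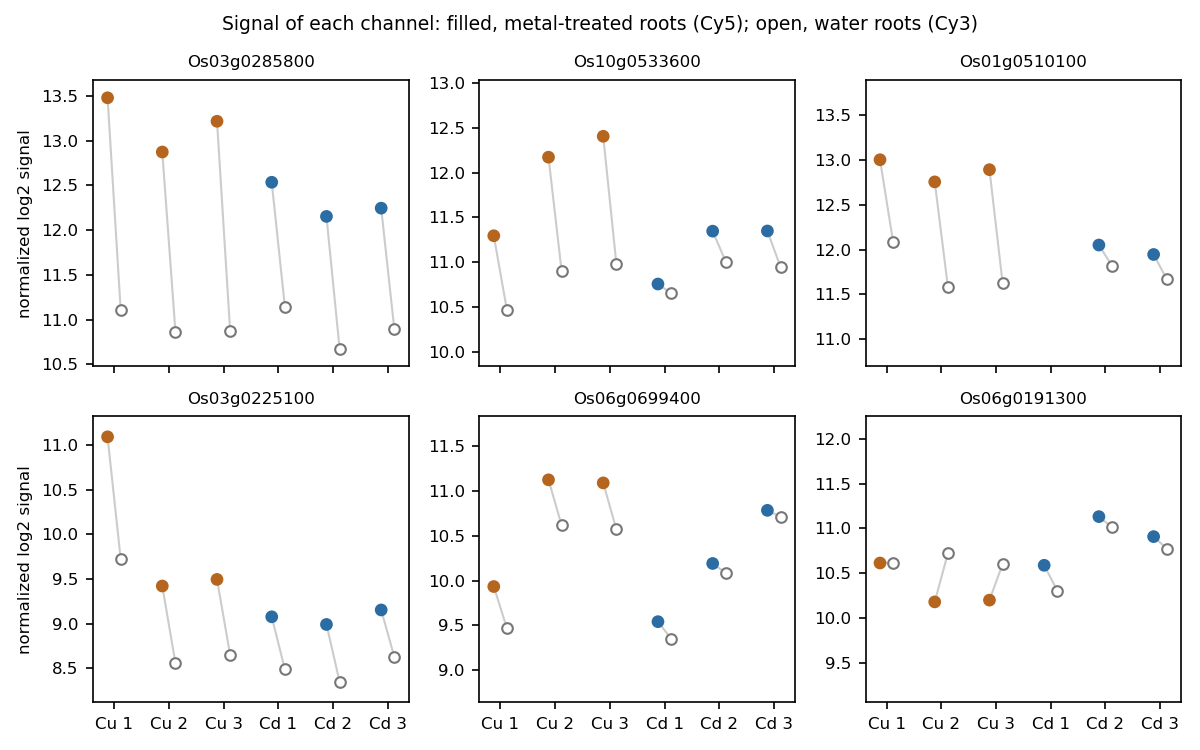
Normalised log2 signal of each channel on each array for 6 of the loci. Filled points are metal-treated roots (Cy5, copper arrays at the left and cadmium arrays at the right), open points are water roots (Cy3) on the same array, and each panel spans the same number of log2 units. Os01g0510100 has no point on cadmium 1. The water signal of Os03g0285800 stays between 10.68 and 11.14 while its treated signal is between 12.15 and 13.48.

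The patterns of the loci over the 6 arrays were compared by the root mean square (RMS) difference of their log2 ratios. The most alike pair among the 9 was Os10g0533600 and Os01g0510100, with an RMS difference of 0.12 over the 5 arrays that both have, followed by Os06g0699400 and Os02g0787300 with 0.28. The least alike were Os03g0285800 and Os06g0191300, with 2.01. For Os03g0285800, the locus farthest from 0 over all arrays, the 3 tested genes with the most similar values were Os03g0122300 (RMS difference 0.14 over 6 arrays), Os05g0402900 (0.18) and Os03g0322200 (0.19). Os03g0122300 had ratios of 2.12, 2.10 and 2.26 on the copper arrays, against 1.53, 1.34 and 1.27 on the cadmium arrays. The files give no names for these loci either, and the likeness is a description of 6 arrays.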

How the data were processed

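The deposited intensity values, per the file headers, are Agilent Feature Extraction 10.7.1.1 output: median spot and local background brightness per channel, without normalisation. That program also gave processed intensity (background-subtracted, detrended, dye-normalised), from which the deposited log10 ratio of Cy5 over Cy3 was formed. The authors' series table holds log2 ratios. Against the scanner's ratios, its columns had slopes of 1.00 and correlations of at least 0.988, which gives the scale as log2 and the direction as metal over water. The column medians were, for the copper arrays in order, -0.067, -0.16 and -0.19, and, for the cadmium arrays, -0.050, -0.14 and -0.080. For the tested probes of 8 of the 9 loci the table gave, within rounding, the same fitted changes as the scanner's processed signals without centring (Os01g0510100 differed with cadmium, at 0.24 and 0.27). In the authors' table the flagged cadmium 1 spot of Os01g0510100 was not left out.

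Here, medians were background-corrected with normexp (offset 50) and normalised by loess within arrays, which assumes that most genes do not change. Spots flagged by the scanner program as outliers (2.85% on copper 1, 1.45% on cadmium 1, at most 0.16% elsewhere) were dropped, and replicate spots averaged. A probe stayed in if, for either metal, 1 channel was well above background on all 3 arrays and each metal had 2 or more values (33695 probes, 23417 genes). Each gene was tested by its brightest such probe. limma 3.58.1 (R 4.3.3) fitted all 6 arrays, 1 coefficient a metal, two-sided, with Benjamini-Hochberg adjustment over all genes at 0.05. Channel signals were scaled with Aquantile after loess.

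Same-numbered copper and cadmium arrays deviated together from their group means (correlations across genes of 0.37, 0.24 and 0.27, against a rule of 0.1), so the title numbers were taken as pairs in an alternative fit. Numbers 2 and 3 also share a slide, and arrays of unlike number were not compared in this way. These correlations therefore cannot tell pairs from slides. Log2 ratios of copper 3 correlated at 0.727 with cadmium 2 and 0.712 with cadmium 3, and those of copper 2 at 0.679 and 0.656. Copper 1 correlated at 0.646 with cadmium 1, 0.649 with cadmium 2 and 0.614 with cadmium 3.

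The loci and lists were chosen with earlier results of these data known. Every listed locus is named, and beside them the 3 genes most like the locus farthest from 0. Lists of other cascade genes and of marker genes rested on gene descriptions, and 0 of the 29864 loci matched the reference table, so they gave no members. Each result was recomputed under 22 other settings, of which 1, a fit of all kept probes, was chosen after seeing the data.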

Additional observations from a re-analysis of the deposited data

Results flagged for a closer look

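The effect of copper against water differed from that of cadmium against water by the test between the metals in 4 loci. The copper minus cadmium differences in log2 ratio were 0.89 for Os10g0533600, 0.86 for Os01g0510100, 0.84 for Os03g0285800 and 0.38 for Os06g0699400.

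For Os06g0191300 every copper array lay below water and every cadmium array above it, with a difference of -0.50. This one was marked for its opposite signs, and the test of the difference itself did not pass (limma adjusted p = 0.0817). Its ratio on copper 1 was -0.0055, and another of its 3 probes read 0.013 there.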

How the results depend on the processing

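The values of the 9 loci in 3 comparisons were each recomputed under 22 alternatives. The copper rises of Os03g0285800, Os10g0533600, Os06g0699400, Os01g0510100 and Os03g0225100, the cadmium rises of Os03g0285800 and Os03g0225100 and the difference of Os03g0285800 between the metals were called under all of them. The count of loci called with copper, 8 here, was 5 to 8 when 1 array was left out, that with cadmium, 3 here, was 2 to 4, and that between the metals, 4 here, was 1 to 5. Calls over all genes moved too, from 5762 (without copper replicate 3) to 11657 (without cadmium replicate 1) with copper. With cadmium they ran from 4491 (without cadmium replicate 2) to 9008 (without copper replicate 1). With the slide as a random block (correlation 0.664 among arrays of a slide) 7 loci were called between the metals, 6 with copper (all higher) and 3 with cadmium. Of all 23417 genes, that fit called 5876 between the metals, 8454 with copper and 6533 with cadmium. The main fit called 2491, 10045 and 7960, so the count between the metals rose across the array. With only the slide that holds both metals 6 were called with cadmium and 6 between the metals, in each case 5 higher and 1 lower. Of all genes, 11242 were then called with cadmium and 6077 between the metals. The spread in that fit comes from 2 arrays per metal on 1 slide. With the replicate block 8, 4 and 5 loci were called with copper, with cadmium and between the metals, beside 12156, 10333 and 3806 of all genes. The calls added by the replicate block were Os10g0533600 with cadmium and Os06g0191300 between the metals, and no other call changed with that block. The split of copper calls was 7 higher and 1 lower here, and 6 and 0 with no background subtraction. The scanner's processed signals moved the median of all genes to -0.13 with copper and -0.11 with cadmium, and 5 loci were then higher and 1 lower with copper, with or without centring on that median. Over all alternatives a sign turned only in values that had not passed the test. With 1 array left out, Os06g0154500 ran from -0.19 (without cadmium replicate 2) to 0.010 (without cadmium replicate 1) with cadmium and from -0.042 (without cadmium replicate 1) to 0.15 (without cadmium replicate 2) between the metals, and Os02g0787300 with cadmium from -0.29 (without cadmium replicate 1) to 0.097 (without cadmium replicate 2). With only the slide that holds both metals, Os06g0154500 was at 0.010 with cadmium and -0.019 between the metals, and with the mean over its probes at -0.044 between the metals. Os02g0787300 with cadmium became 0.028 with the slide as a random block, and Os06g0699400 with cadmium became -0.019 with arrays centred on their median instead of loess. The cause of these shifts was not tested. All 30 probes were well above background in both channels on every array. The difference of Os02g0787300 between the metals still ran from 0.41 with no background subtraction, over 0.60 with an offset of 10, to 0.73 with the scanner's processed signals and 0.78 with these centred, without passing the test in any of them.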
